A study of Mus musculus with 7 samples.

Results

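MyoD peaks that lie deep inside long genes are described here. A peak belonged to the set when its summit lay inside a locus that the expression table gives to a single gene, at least 20 kb from both ends of that locus, on chromosomes 1 to 19 of mm9. Of 10756 peaks in the authors' list, 10620 lay on those chromosomes, and 936 of them (8.81%) met the rule, in the loci of 544 genes, here called host genes. The rule uses position only and no measured value. Its last clause, at least 1 kb from an end of any other locus, removed 0 peaks, since no summit lay in more than 1 locus and the nearest end of another locus was 20.5 kb away. The members just inside the limit lay 20.009 kb deep in Map3k5 (7 tags), 20.065 kb deep in Fras1 (7 tags) and 20.093 kb deep in Rlf (8 tags). Just outside it were peaks 19.957 kb deep in Megf10 (12 tags), 19.952 kb in Loh12cr1 (7 tags) and 19.926 kb in Cit (7 tags).

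The peaks came from 1 chromatin immunoprecipitation (ChIP) of MyoD in mouse primary myotubes, differentiated for 48 hours in medium with 5% horse serum, and its label says that the sample was taken over from an earlier deposit. Expression was measured by RNA sequencing in growing primary myoblasts and in myotubes after 48 hours, both carrying an empty retroviral vector, with 1 value per gene and condition. The cells descended from sorted satellite cells, taken from mice aged 4 to 6 weeks; strain and sex are not named in the labels. Each of the 7 samples of the series is alone in its group, and the 4 ChIP samples for histone marks were left aside here. The labelled cell type was checked on its markers. Myog rose from 130 to 1207 FPKM (fragments per kilobase of transcript, scaled to mapped reads) and Ckm from 49.4 to 1453, and Ptprc, Adipoq and Pdgfra of other lineages stayed under 0.58 in both conditions, while Pecam1 and Mbp were at 4.62 and 1.72 in myoblasts and at 0.213 and 0.215 in myotubes. The myoblast markers were mixed. Myf5 fell from 55.4 to 14.4 FPKM and Pax7 from 48.5 to 6.71, both called lower in the authors' deposited table. Myod1, at 895 and 293, and Cdh15, at 78 and 132, were not called, and Des was called higher, at 539 and 2785. Nothing here has a replicate: intervals on counts and shares cover counting error only, and no test over sets of peaks or genes was made. The calls and errors of expression are those of the authors' deposited table, except the calls given after centring. Those were recomputed from the fold changes and errors of that table.

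MyoD is a basic helix-loop-helix factor that pairs with E proteins and binds E-boxes, of the form CANNTG, and CAGCTG is among its preferred kinds, as is CAGGTG, which reads CACCTG on the other strand. Much of its binding in muscle cells lies outside promoters, in introns and between genes, where it takes part in opening enhancers that can act on a promoter over a distance. Introns of long genes can hold such enhancers for the host gene itself or for a neighbour.

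The sequence of mm9 was not used here, so the letters under the peaks are not shown. Shown instead are promoters of 3 host genes that rose in myotubes and held 3 or more deep peaks, because the deep peaks are measured by their distance from such ends. The windows, from RefSeq on build GRCm38.p6, run from 250 bases before to 50 after a transcription start and were chosen because they hold CAGCTG, printed in capitals. Rap1gap2 has 4 promoter windows in the table, of which only 1 holds CAGCTG, the printed one on chromosome 11 from 74610866 to 74611165 (minus strand). For Ccdc141 the 1 window is on chromosome 2 from 77170586 to 77170885 (minus strand). For Nav2 1 of 2 windows is printed, on chromosome 7 from 49245939 to 49246238 (plus strand).
Rap1gap2: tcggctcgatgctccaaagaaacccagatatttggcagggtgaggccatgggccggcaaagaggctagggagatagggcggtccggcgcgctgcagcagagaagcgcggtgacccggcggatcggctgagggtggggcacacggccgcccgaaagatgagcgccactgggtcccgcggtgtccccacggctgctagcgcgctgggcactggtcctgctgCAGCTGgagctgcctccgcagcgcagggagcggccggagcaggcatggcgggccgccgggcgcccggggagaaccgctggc
Ccdc141: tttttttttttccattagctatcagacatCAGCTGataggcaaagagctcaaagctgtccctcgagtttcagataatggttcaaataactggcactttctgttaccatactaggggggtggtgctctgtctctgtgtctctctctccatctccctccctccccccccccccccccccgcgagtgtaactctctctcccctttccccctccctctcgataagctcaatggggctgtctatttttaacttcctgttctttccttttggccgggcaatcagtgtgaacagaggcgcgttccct
Nav2: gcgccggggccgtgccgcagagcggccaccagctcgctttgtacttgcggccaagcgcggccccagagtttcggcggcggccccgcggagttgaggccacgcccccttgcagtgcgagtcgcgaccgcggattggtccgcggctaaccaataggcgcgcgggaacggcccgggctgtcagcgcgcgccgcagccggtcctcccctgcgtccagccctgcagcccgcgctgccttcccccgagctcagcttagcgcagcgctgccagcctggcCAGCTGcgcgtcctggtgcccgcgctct
Counted from the start site, the motif begins at base -31 in Rap1gap2, at -221 in Ccdc141 and at 22 in Nav2. CAGCTG reads the same on both strands and is in 16.3% of all 32851 promoter windows of the table, so a match is common. CAGGTG or CACCTG is in 20.2% of them and CANNTG, which includes the other 2 kinds, in 72.3%. None of the 3 printed windows holds CAGGTG or CACCTG, but 1 other window of Rap1gap2 and the other window of Nav2 hold 1 such motif each and no CAGCTG. RefSeq starts and the loci of the table come from different builds and were not matched, so a printed start need not be an end of the locus. A share over the host genes is not given, because only 426 of 544 (78.3%) had a window in the table.

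Deep peaks were mostly small. They held 7 to 79 tags, with a median of 12 (middle 50% from 9 to 19), where a tag is 1 sequenced fragment end in the peak. Peaks in single-gene loci but within 20 kb of an end had a median of 15 tags and reached 707, peaks in loci of 2 or more genes had a median of 14, and peaks in no locus 13. At least 20 tags were found in 24.4% of deep peaks (228 of 936, exact 95% interval 21.6% to 27.2%), in 34.2% of peaks nearer an end (32% to 36.3%), in 30.9% of peaks in shared loci (29.4% to 32.5%) and in 29.3% of peaks in no locus (27.9% to 30.7%). At least 40 tags were found in 29 deep peaks (3.10%) and in 7.16% of peaks nearer an end. Deep peaks were also narrower, with a median width of 398 bp against 458 bp nearer an end.

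**Figure D1:**
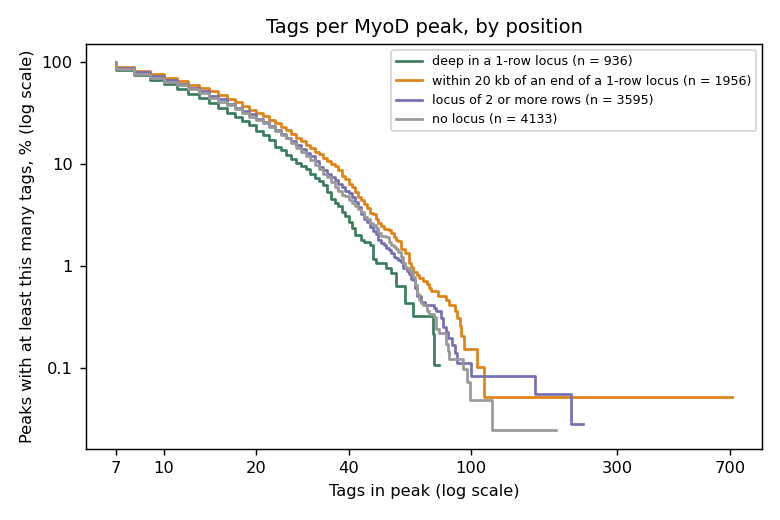
Share of MyoD peaks (%, log scale) that hold at least the number of tags on the x axis (log scale), for deep peaks, peaks within 20 kb of an end of a single-gene locus (1 row of the expression table), peaks in loci of 2 or more rows and peaks in no locus. The line of the 936 deep peaks is the lowest from 10 tags up and ends at 79 tags.

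Fold enrichment, the authors' ratio of tags to the regional background, did not follow the same order. Its median was 15.9 in deep peaks (range 5.10 to 77), 14.2 nearer an end, 15.2 in shared loci and 15.6 in no locus. A false discovery rate of 5% or less, as the authors give it, was found for 172 deep peaks (18.4%, interval 15.9% to 21%), against 17.1% nearer an end, 20.5% in shared loci and 19.5% in no locus. The deep peaks had fewer tags per peak than those near locus ends, at a fold enrichment and error rate of similar size.

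The 11 richest members held 49 to 79 tags, and 4 more held 48. The first was in Phf21b, which encodes a PHD finger protein, on chromosome 15 from 84659890 to 84660160, with 79 tags but only 6.30-fold enrichment. Its host, with 0.681 FPKM before and 0.140 after differentiation, was not tested. Neurl1a, a ubiquitin ligase gene, held the next, on chromosome 19 from 47296498 to 47297660, with 76 tags and 21.5-fold enrichment, 36.7 kb from the nearer end. Neurl1a rose from 14.6 to 139 FPKM (authors' deposited table: log2 3.24 with SE 0.65, q = 1.6e-05). A peak of 75 tags on chromosome 12 from 106216698 to 106218042 lay in 4831426I19Rik, whose FPKM fell from 14.5 to 4.90 (authors' deposited table: log2 -1.56 with SE 0.41, q = 0.0013). Reep1, which shapes the endoplasmic reticulum, held 61 tags on chromosome 6 from 71706813 to 71708042 and rose from 8.42 to 75.5 FPKM (authors' deposited table: log2 3.16 with SE 0.67, q = 4.94e-05). The richest peaks thus lay in hosts that rose, hosts that fell and a host that was barely detected.

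Of the other rich members, Eif2c2 (an Argonaute) held 65 tags, Hip1 (a clathrin adaptor) 61, Numb (an inhibitor of Notch) 57, Garnl3 57, Pik3c2b (a lipid kinase) 53 and Setd3 (the actin histidine methyltransferase) 49. Megf10, a receptor of satellite cells that is mutated in a human myopathy, held one of 55 tags and one of the 4 with 48, which also include members of Nav2 and of Itgb6, an integrin gene. Garnl3 was called lower in the authors' deposited table, at 8.33 and 0.871 FPKM, and Eif2c2, Hip1, Numb, Pik3c2b, Setd3 and Megf10 were not called. The Numb peak, on chromosome 12 from 85189909 to 85190485, was 55.1 kb from the nearer end and had the highest p score of all members, 455 (its p-value as minus log10, multiplied by 10), with 61.7-fold enrichment.

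High fold enrichment picked out other hosts. Ambra1, an autophagy gene at 49 and 53.7 FPKM, held the highest, 77-fold from 17 tags on chromosome 2 from 91719084 to 91719417. Next were Lsamp, a neuronal adhesion gene listed at 0 in both conditions (76.6-fold, 40 tags), Adamts17, a metalloprotease gene at 0.0541 and 0.0698 FPKM (71.8-fold, 32 tags), and Tcerg1l (69-fold, 36 tags). Gnat3, a taste transducin gene listed at 0 in both conditions, held a peak of 56.4-fold from 18 tags. Of the 8 members with the highest fold, 3 were thus in hosts that were not tested, and the others were in Numb, Wdr70, Nedd4l, Ambra1 and Tcerg1l. Among the members with the fewest tags, 7 each, the 5 with the lowest fold lay in Rasa3, Hpcal1, Iqgap1, Khdrbs3 and Pak1, at 8-fold to 10.2-fold. Members with more tags reached lower folds, down to 5.10.

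Depth in the gene ranged from 20 to 551 kb, with a median of 39.4 kb (middle 50% from 27.9 to 62.5 kb). At 50 kb or more from both ends were 335 members, at 100 kb or more 96 and at 200 kb or more 22. The deepest lay in Auts2, whose nuclear protein associates with a Polycomb complex, on chromosome 5 from 132468183 to 132468542, with 12 tags. After it came peaks 403 kb deep in Park2, the ubiquitin ligase Parkin (9 tags), 359 kb deep in Npas3 (8 tags), a 2nd peak in Auts2 at 333 kb (12 tags) and 292 kb deep in Esrrg, an estrogen-related receptor (8 tags). Peak size did not fall off with depth: median tags were 12 at 20 to 30 kb, 13 at 30 to 50 kb, 13 at 50 to 100 kb and 12 at 100 kb or more. The share at a false discovery rate of at most 5% was 16.8%, 18.3%, 19.2% and 20.8% in the same order.

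Because long genes hold more DNA, peaks were also counted per Mb. The 2783 single-gene loci over 40 kb, the only ones that can hold a member, had 180 Mb of deep sequence with 5.21 peaks per Mb (95% Poisson interval 4.88 to 5.56) and 111 Mb in their outer 20 kb with 6.99 per Mb (6.51 to 7.5). The excess near the ends lay in the first kilobase, at 23.9 per Mb (20 to 28.3). From 1 kb inward the density was level, with 6.33 at 1 to 5 kb, 5.68 at 5 to 10 kb, 6.22 at 10 to 20 kb, 6.18 at 20 to 30 kb and 6.62 at 30 to 50 kb. It was lower further in, at 4.95 (4.34 to 5.61) from 50 to 100 kb, 2.68 (2.10 to 3.36) from 100 to 200 kb and 2.23 (1.40 to 3.38) beyond 200 kb. Genes that were not tested held 73.3 of the 180 Mb of deep sequence, and 39.9 of the 81.3 Mb in loci over 200 kb. Over loci of tested genes alone, the density was 8.63 at 10 to 20 kb, 7.96 at 20 to 30 kb and 8.98 at 30 to 50 kb, and then 7.49 (6.50 to 8.58) from 50 to 100 kb, 4.30 (3.28 to 5.53) from 100 to 200 kb and 5.34 (3.31 to 8.17) beyond 200 kb. Only loci over 200 kb reach beyond 100 kb, so these steps compare different genes. Within loci over 200 kb of tested genes, the density was 4.76 (2.60 to 7.99) at 10 to 20 kb and 7.14 (4.42 to 10.9) at 20 to 30 kb. It was 6.80 (4.86 to 9.26) at 30 to 50 kb and 5.37 (4.25 to 6.70) at 50 to 100 kb. These intervals overlap each other and those beyond 100 kb, so no fall with depth beyond counting error was seen there. Which end of a locus is the start of its gene is not given in the table, so the 5' and 3' sides were not separated, and exons were not told apart from introns.

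**Figure D2:**
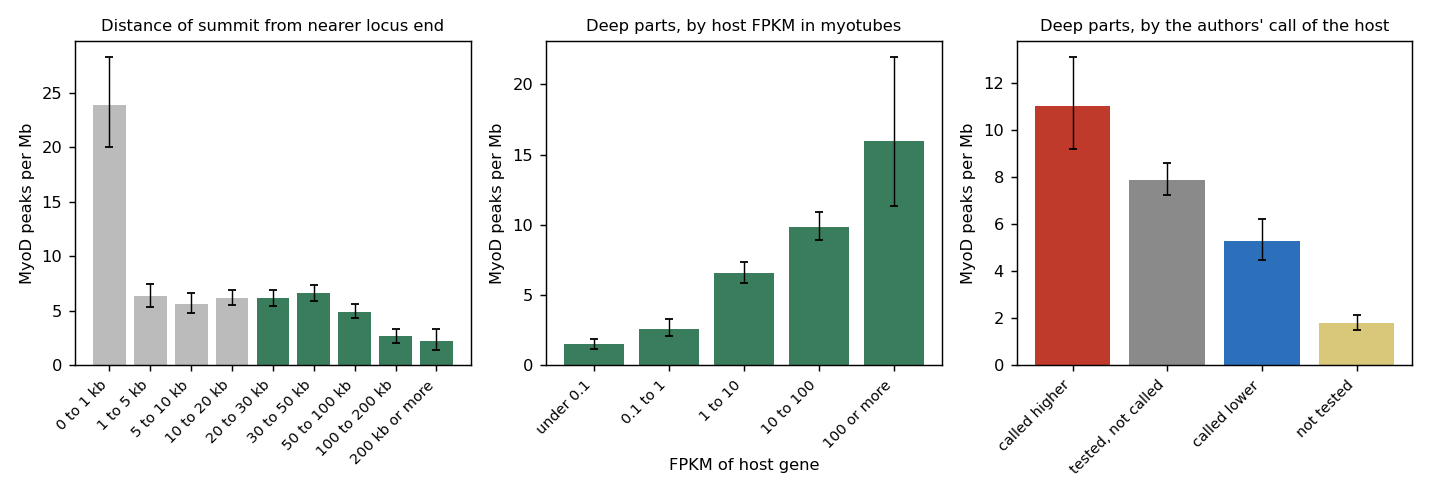
MyoD peaks per Mb of single-gene loci over 40 kb, with 95% Poisson intervals as bars: by distance of the summit from the nearer locus end (grey under 20 kb, green for deep), and, for the deep parts only, by the FPKM of the gene in 2-day myotubes and by the authors' call of the gene. All such loci are counted, with or without a deep peak, and the panels call their genes hosts. Density was 23.9 per Mb in the first kilobase, and in deep parts it ran from 1.5 in genes under 0.1 FPKM to 16 in genes of 100 FPKM or more.

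Deep peaks were densest in genes that were expressed. Densities by level or call of the gene were counted over all single-gene loci over 40 kb, with or without a member. In genes under 0.1 FPKM in myotubes the deep parts held 1.5 peaks per Mb (1.20 to 1.85), at 0.1 to 1 FPKM 2.62 (2.07 to 3.28), at 1 to 10 FPKM 6.59 (5.89 to 7.34), at 10 to 100 FPKM 9.88 (8.94 to 10.9) and at 100 or more 16 (11.3 to 21.9). The intervals of neighbouring classes do not overlap, so each step exceeded counting error. Median tags per member went the same way, from 10 in hosts under 0.1 FPKM to 17 in hosts of 100 or more. A gene with a member was found among 7.22% of the 790 loci under 0.1 FPKM and among 27.7% of the 828 at 10 to 100 FPKM.

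By the authors' call, deep parts of genes called higher in myotubes held 11 peaks per Mb (129 peaks, 9.22 to 13.1), genes tested but not called 7.90 (527 peaks, 7.24 to 8.60), genes called lower 5.31 (148 peaks, 4.49 to 6.24) and genes not tested 1.80 (132 peaks, 1.51 to 2.13). With at least 20 tags the same 4 values were 4.37, 1.95, 1.04 and 0.245 per Mb, so the classes differed more among rich peaks. Median tags were 15 in genes called higher, 13 in genes not called, 12 in genes called lower and 10 in genes not tested. The level of the gene moved with its call. Among genes of 10 to 100 FPKM in myotubes the densities were 11.3 (8.79 to 14.2) for higher, 9.89 (8.74 to 11.1) for not called and 8.70 (6.73 to 11.1) for lower, and these intervals overlap. At 1 to 10 FPKM they were 9.70 (6.99 to 13.1), 6.81 (5.94 to 7.78) and 5.05 (3.92 to 6.40), and there the intervals of higher and lower do not overlap. At 100 FPKM or more genes called higher, with 14.9 (8.70 to 23.9), were not above genes not called, with 17.1 (10.5 to 26.5), and these intervals overlap.

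Host genes were called higher more often than other long genes. Of 544 hosts, 455 were tested, 86 were not tested and for 3 the test had failed. The authors' deposited table called 56 tested hosts (12.3%, interval 9.43% to 15.7%) higher in myotubes and 94 (20.7%, 17% to 24.7%) lower. Over all 15966 tested genes the shares were 6.52% higher and 17.3% lower, and over the 1335 tested genes with a single-gene locus over 40 kb but no member they were 5.99% (4.78% to 7.40%) and 26.3% (23.9% to 28.7%) by the same table. All fold changes of that table lean downward, with a median of -0.41 on the log2 scale. Centring on that median moved the split of host calls from 37.3% higher to 60.6% higher, with 83 hosts higher (18.2%) and 54 lower (11.9%), beside 9.94% and 10.2% of all tested genes and 8.84% and 15.7% of long genes without a member. The median log2 ratio of hosts, with 1 FPKM added to both values, was -0.37, equal to the -0.37 of all tested genes and above the -0.56 of long genes without a member.

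Hosts are longer than other long genes (median 118 kb against 65 kb), so shares were also compared within length classes. Called higher in the authors' deposited table were 16% of tested hosts and 4.76% of genes without a member at 40 to 60 kb, 8.03% and 5.32% at 60 to 100 kb, 12.5% and 9.01% at 100 to 200 kb, and 16.3% and 12.7% over 200 kb. Only at 40 to 60 kb do the counting intervals of the pair not overlap (7.17% to 29.1% and 3.19% to 6.81%). Within classes of mean FPKM the pairs in the authors' deposited table were 7.69% and 9.68% under 1, 13.5% and 5.49% at 1 to 10, 9.60% and 5.05% at 10 to 50, and 17.8% and 9.58% at 50 or more. Hosts were thus not above the other genes under 1 FPKM, where 13 hosts were tested, and the counting intervals of the pair do not overlap only at 1 to 10 (8.72% to 19.5% and 3.65% to 7.88%).

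The share called higher differed with the number and size of the deep peaks, in groups that were not matched for locus length. Among genes without a member it was 4.76% at 40 to 60 kb and 12.7% over 200 kb. In the authors' deposited table it was 9.44% (6.31% to 13.4%) of 286 tested hosts with 1 member and 12.3% (6.08% to 21.5%) of 81 with 2. It was 21.6% (13.5% to 31.6%) of 88 with 3 or more. The interval for 2 members overlaps both others. Median log2 ratios of hosts with 1, 2 and 3 or more members were -0.47, -0.22 and 0.29. Among 152 tested hosts with a member of at least 20 tags, 21.7% (15.4% to 29.1%) were called higher, and 15.1% lower, by the authors' deposited table. That interval for higher calls overlaps the 9.43% to 15.7% of all tested hosts. With a peak in the outer 20 kb of the same locus the share was also larger, but the counting intervals with and without one overlap. It was 17.6% (12.2% to 24.2%) of 170 tested hosts with such a peak and 9.12% (6.05% to 13.1%) of 285 without one, while genes with outer peaks only had 10.3% and long genes with no peak 4.64% (3.42% to 6.12%), all by the authors' deposited table. Outer peaks were found at 187 hosts (34.4%) and at 388 of the 2239 long loci without a member (17.3%). A peak within 1 kb of an end was found at 45 hosts (8.27%), and 357 hosts had deep peaks only.

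**Figure D3:**
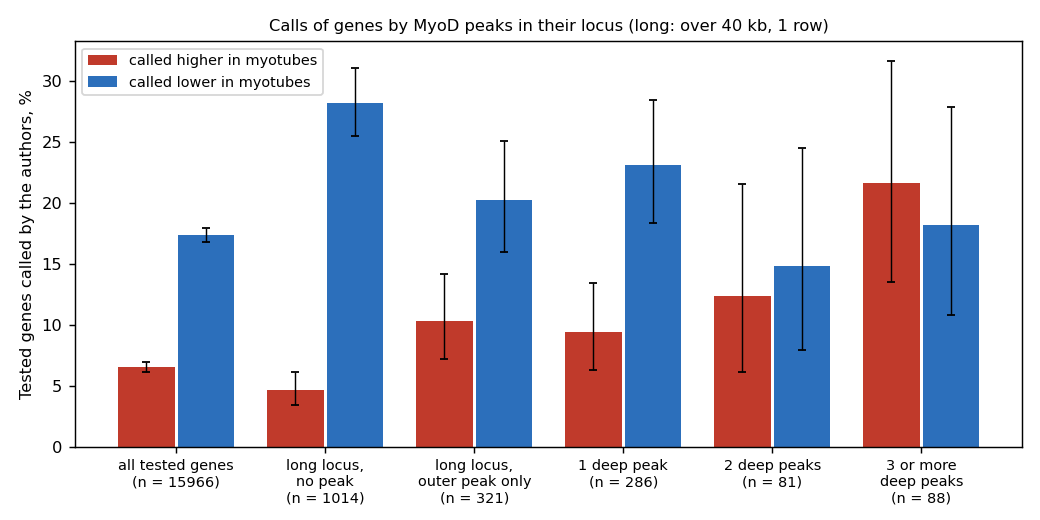
Share of tested genes (%) called higher or lower in myotubes in the authors' deposited table, with exact 95% binomial intervals, for all genes, for single-gene loci over 40 kb with no peak or with outer peaks only, and for hosts by number of deep peaks. The share called higher is 4.64% at long loci with no peak and 21.6% at hosts with 3 or more deep peaks. The groups were not matched for locus length.

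Deep peaks often shared a host, and the sharing that locus length alone would give was not computed. Of the 544 hosts, 346 held 1 member, 101 held 2 and 97 held 3 or more, so that 590 members (63%) shared their host with another. Peaks that share a host are not independent of each other. Neighbouring members of a host were 17.5 kb apart in the median, with 98 of 392 gaps under 5 kb, 20 under 1 kb and the smallest 309 bp. A further member within 5 kb was found for 183 members.

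The fullest hosts were Megf10 and Kalrn, a guanine nucleotide exchange factor gene, with 8 members each. Megf10 also had the most tags, 235 over its deep peaks, of which 5 of 8 held 24 or more. The members of Megf10 held 7, 16, 19, 48, 55, 38, 24 and 28 tags in order along the locus, and the first 4 were 40.5 to 79.3 kb and the last 4 were 117 to 134 kb from its end of lower coordinate. Megf10, without a call, had 48.3 FPKM before differentiation and 22.3 after it (authors' deposited table: log2 -1.12 with SE 0.69, q = 0.259). Kalrn, of 599 kb, had its 2 richest members, 35 and 40 tags, 358 and 402 kb from the same end, and was not called either, at 5.45 and 3.58 FPKM. The most crowded loci thus did not include the strongest rises.

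Ccdc141, a coiled-coil protein gene, and Nav2, a neuron navigator gene, held 7 members each and both rose. Ccdc141 rose from 12 to 96.7 FPKM (authors' deposited table: log2 3.02 with SE 0.33, q listed as 0). Its members with 23, 24 and 25 tags lay within 4.05 kb of each other, and the other 4 held 7 to 17 tags. Nav2 rose from 8.25 to 25.3 FPKM (authors' deposited table: log2 1.62 with SE 0.49, q = 0.00646). Of its members, 6 lay between 88.2 and 151 kb from the end of lower coordinate with 12 to 48 tags, and the last at 228 kb with 27 tags. The richest members of Ccdc141 thus lay close together, while those of Nav2 were spread more widely.

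The other hosts with most members were Wbscr17, a glycosyltransferase gene, and Nedd4l, a ubiquitin ligase gene, with 7 each, and Trak1, a mitochondrial transport adaptor, Lrrfip1, Man1c1, a Golgi mannosidase, and Auts2 with 6 each, the 4 with most tags of the 7 hosts with 6. Wbscr17 was at 2.82 and 6.55 FPKM, Nedd4l at 3.77 and 7.25, Trak1 at 23.5 and 42.9, Lrrfip1 at 59.9 and 79.2 and Man1c1 at 9.06 and 12.5, and none of them was called in the authors' deposited table. After centring, Wbscr17, Nedd4l, Trak1 and Man1c1 were higher. Auts2, the longest host at 1106 kb, was called lower in the authors' deposited table, at 52 and 19.2 FPKM (authors' deposited table: log2 -1.44 with SE 0.40), and lost that call after centring. Its richest member held 39 tags, 206 kb from the nearer end. The other hosts among the 5 longest were Gpc6, called lower in the authors' deposited table, and Park2, Rasgrf2 and Npas3, without a call.

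**Figure D4:**
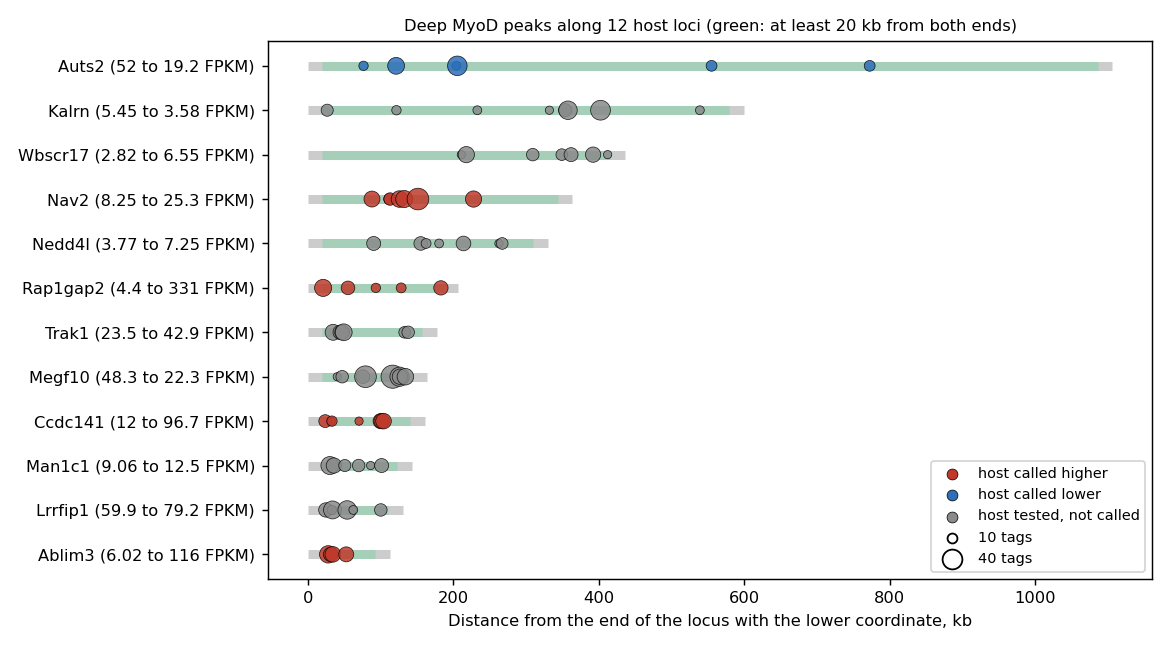
Deep MyoD peaks along 12 host loci, the 10 with most members and Rap1gap2 and Ablim3, as distance (kb) from the locus end of lower coordinate; point area is proportional to tags, colour gives the authors' call and the FPKM in myoblasts and myotubes follow the name. Megf10 and Kalrn hold 8 peaks each, and the peaks of Ccdc141 with most tags sit close together at 100 to 104 kb.

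The largest rise among hosts was that of Rap1gap2, a GTPase-activating protein for Rap1, whose 5 deep peaks were spread over its locus of 207 kb. They held 30, 19, 9, 10 and 21 tags at 21.1, 55.2, 93.5, 128 and 183 kb from the end of lower coordinate, so the richest were at the flanks. Rap1gap2 rose from 4.40 to 331 FPKM (authors' deposited table: log2 6.23 with SE 0.57, q listed as 0). Ablim3, which encodes an actin-binding LIM protein, held 4 members. It rose from 6.02 to 116 FPKM (authors' deposited table: log2 4.27 with SE 0.62) with members of 31, 22, 25 and 23 tags. Rap1gap2 and Ablim3 thus each held at least 1 member of 30 or more tags.

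Others of the 10 largest rises among hosts with at least 10 FPKM in myotubes and 0.1 in myoblasts had little deep signal. Cacna1s, the voltage sensor of the muscle calcium channel, rose from 26.1 to 411 FPKM (authors' deposited table: log2 3.98 with SE 0.31) with 1 member of 8 tags. Grb10, an adaptor of insulin and IGF receptors, rose from 0.780 to 17.2 (authors' deposited table: log2 4.46 with SE 1.19) with 1 member of 7 tags. Tmem182, a muscle membrane protein gene, rose from 6.52 to 76.2 FPKM with 1 member of 10 tags, and 2310046A06Rik, named Mlip in RefSeq, from 1.65 to 24.9 with 2 members of 18 tags in sum, by the authors' deposited table. Camk2a, a calmodulin-dependent kinase gene, rose from 7.74 to 87.4 FPKM with 1 member of 31 tags by the authors' deposited table. The hosts with the highest myotube level were Ehd4 at 506 FPKM, Capzb at 422, Cacna1s at 411, Uqcc at 391 and Rap1gap2 at 331, with 1, 2, 1, 2 and 5 members.

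Of the 10 largest falls among hosts with at least 10 FPKM in the higher condition, 7 held 1 member, of 7 to 25 tags. Eps8, an actin regulator and receptor kinase substrate, fell from 84.7 to 8.57 FPKM (authors' deposited table: log2 -3.31 with SE 0.39) with a member of 7 tags, and Met, the hepatocyte growth factor receptor, from 125 to 14.6 (authors' deposited table: log2 -3.09 with SE 0.40) with one of 10. Iqsec3, an Arf exchange factor gene, held 20 tags and fell from 75.5 to 9.08 FPKM, and Fam19a5, a secreted protein gene, held 25 and fell from 165 to 21.4, by the authors' deposited table. Acsbg1, Col8a1 and Smoc2, with 1 member of 17, 7 and 15 tags, were also among the 10 largest falls of the authors' deposited table. The exceptions were Tox2, an HMG-box gene with 3 members of 40, 47 and 15 tags, which fell from 96.2 to 14.9 FPKM (authors' deposited table: log2 -2.69 with SE 0.43), Tcerg1l with 2 (36 and 20 tags) and Pax7. Pax7, the satellite cell factor, held members of 21 and 16 tags, 34.2 and 22.9 kb from the nearer end, and fell from 48.5 to 6.71 FPKM (authors' deposited table: log2 -2.85 with SE 0.60). A rich deep peak in myotubes was thus found in genes that fell as well as in genes that rose.

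**Figure D5:**
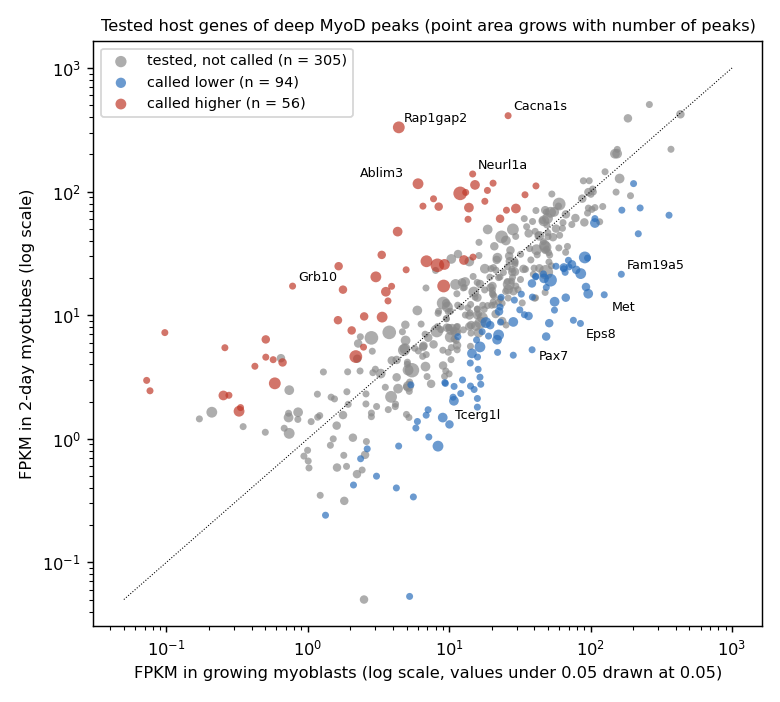
FPKM of the 455 tested host genes in growing myoblasts (x axis) and 2-day myotubes (y axis), both on log scales, coloured by the authors' call, with point area growing with the number of deep peaks and the dotted line at equal values. The 56 hosts called higher lie above the line, with Rap1gap2 farthest from it, and the 94 called lower lie below.

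Hosts were then grouped by gene lists, and the calls of each group stand beside those of its whole list. Among all tested genes, the authors' deposited table called 6.52% higher and 17.3% lower. Few genes of the contractile apparatus can hold a deep peak, since many are short or share their locus: of 47 sarcomere and Z-disc genes, 9 had a single-gene locus over 40 kb and 2 were hosts, with 4 members. Of 46 tested genes of that list, 36 were higher and 3 lower. Pdlim5, a Z-disc LIM protein gene, rose from 20.4 to 117 FPKM (authors' deposited table: log2 2.52 with SE 0.38) with a member of 13 tags, and Synpo2, an actin-bundling Z-disc gene, was at 18.7 and 49.4 FPKM with 22, 14 and 15 tags, not called in the authors' deposited table but higher after centring. Of 33 genes of excitation-contraction coupling and calcium, 6 were hosts with 8 members. Of 5 tested, the authors' deposited table called 3 (Camk2b, Camk2a and Cacna1s) higher and 1 lower, and their median log2 ratio was 1.85. Over the whole list, 18 of 30 tested genes were higher and 4 lower by the same calls, so the hosts' share of higher calls was that of their list. Camk2b held 13, 26 and 37 tags and rose from 3.57 to 15.5 FPKM (authors' deposited table: log2 2.12 with SE 0.53). Acsl1, an acyl-CoA synthetase of the muscle metabolism list, rose from 13.6 to 59.6 FPKM (authors' deposited table: log2 2.13 with SE 0.41) with a member of 33 tags.

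Among 45 genes of the dystrophin complex, membrane and adhesion, 4 were hosts with 17 members, all tested, of which Sntb1, a syntrophin gene, was called higher and Sgce, a sarcoglycan gene, and Ank3, an ankyrin gene, lower in the authors' deposited table, while Megf10 was not called. Of the 38 tested genes of the list, 13 were higher and 5 lower. Ank3 lost its call after centring. Among 57 myogenic transcription and chromatin regulators, 7 were hosts with 18 members, and the authors' deposited table called 2 of them higher and 2 lower (median log2 ratio 0.01), beside 10 higher and 12 lower of the 55 tested genes of the list. Tead4, a TEA domain factor of muscle genes, held 20, 31 and 35 tags and rose from 15.2 to 113 FPKM (authors' deposited table: log2 2.90 with SE 0.38). Rbfox1, a splicing regulator, held 6 members with 67 tags in sum and rose from 9.13 to 17.2 FPKM (authors' deposited table: log2 0.91 with SE 0.36, q = 0.0472). Pax7 and Mbnl1, another splicing regulator, had a lower call by the authors' deposited table, Mbnl1 not after centring. Smarca4, a chromatin remodelling ATPase, with 2 members, and Foxo3, a forkhead factor, with 1, were not called in the authors' deposited table.

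The list of growth factor and signalling genes had most hosts, 17 of 60 genes, with 36 members. Of 15 tested, the authors' deposited table called 1 (Rap1gap2) higher and 5 lower, with a median log2 ratio of -0.85 against -0.37 for all tested genes. Over the whole list, 8 of 52 tested genes were higher and 18 lower by the same calls, so the hosts' share of lower calls was close to that of their list. The 5 were Tgfbr2, a TGF-beta receptor, Gli3, a Hedgehog effector, Met, Notch2 and Pde4b, a phosphodiesterase, and Tgfbr2 lost its call after centring. Tgfbr2 held 4 members with 52 tags in sum and fell from 16.5 to 5.53 FPKM (authors' deposited table: log2 -1.58 with SE 0.57). Smad3, the mediator of TGF-beta signals, held 4 members with 98 tags in sum at 52.1 and 68 FPKM, and Igf1r 4 with 46 tags in sum at 17.2 and 9.54, both not called. Of 30 fusion genes 4 were hosts with 10 members, of which 3 were tested and 0 called in the authors' deposited table, beside 4 higher and 7 lower of 23 tested genes of the list. Arhgap10, at 10.3 and 28.5 FPKM, was higher after centring. Of 21 genes of the neuromuscular junction 1 was a host, Ptprs, a receptor phosphatase, with a member of 7 tags, called lower in the authors' deposited table, beside 5 higher and 3 lower of 20 tested genes of the list.

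Long genes of neurons were included as genes of another cell type. Of 52 listed, 15 had a single-gene locus over 40 kb, with 7.44 Mb of deep sequence, and 7 were hosts with 23 members, 3.09 per Mb (1.96 to 4.64). Lsamp and Syt1, listed at 0 in both conditions, held 2 members each, Grin2a, at 0 and 0.0236 FPKM, held 3 and Rims1, at 0 and 0.0802, held 1. Odz3 held 5 members with 67 tags in sum at 3.88 and 2.18 FPKM, Auts2 held 6 and Park2 4. Of 3 tested, 0 had a higher call and 1 (Auts2) a lower one by the authors' deposited table, beside 3 higher and 4 lower of 13 tested genes of the list. Of 25 markers of smooth muscle, fibroblasts, fat and endothelium, 9 had a locus of that kind and 0 were hosts, over 0.509 Mb of deep sequence, for which the upper 95% Poisson limit is 7.24 members per Mb.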

How the data were processed

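MyoD ChIP in 2-day myotubes and RNA sequencing of myoblasts and myotubes were used, 3 of 7 samples. Expression values are FPKM as deposited by the authors, in a Cuffdiff layout. The submitters' processing notes name Cuffdiff, CASAVA 1.7.0 and mm9, and neither they nor the labels name the aligner or the annotation. Apart from the centred calls, the p-values and q-values are those of the authors' deposited table, in which a call went with a q of at most 0.05. The 2 deposited copies of that table were identical. Per the file headers, MACS called the peaks on 8637045 treatment and 9129012 control tags (4049890 and 4371189 unique), with a p-value threshold of 1.00e-05; the submitters' processing notes give version 1.3.7. Tags per peak are counts, fold enrichment is a ratio to regional background, the p score is 10 times minus log10 of the p-value and the false discovery rate is a percent, per the file headers. Peak starts were taken as counted from 1.

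The summit was the start plus the summit offset minus 1. Loci were those of the expression table, of which 23188 belong to 1 row. In Python 3.11.15 with pandas 2.3.3 and scipy 1.17.1, peaks were joined to loci, and shares were given exact Clopper-Pearson and densities exact Poisson 95% intervals. PCR copies are not independent molecules, so intervals cover counting error only. The SE of a log2 fold change is its size divided by the authors' test statistic. For centring, the median log2 fold change of tested genes above 0 in both conditions was subtracted, p recomputed from the SE, and Benjamini-Hochberg adjustment made over all tested genes. The join and the centring were tested on simulated data. Median ratios used log2((FPKM + 1)/(FPKM + 1)) for tested genes with a mean of at least 1 FPKM.

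Named were the members with most tags, highest fold, highest score, greatest depth and fewest tags, those nearest 20 kb, and hosts with most members, longest loci, highest myotube FPKM, on a list (up to 6 a list), or among the 10 largest rises and falls with FPKM of at least 10 and 0.1 in the higher and lower condition. Members, lists and rules were chosen with earlier results of these data known. Some host genes that these rules pick out are not reported here.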

Additional observations from a re-analysis of the deposited data

How the results depend on the processing

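No paired analysis was possible because each group holds 1 sample. Of 83 recomputed values, 55 stayed within the counting interval of the reported value, or within 1.5 times a reported count, and 28 did not; none changed sign. Some of the 55 could not move. Asking for no 2nd locus left the set unchanged, since 0 summits lay in more than 1 locus. The shares of calls over tested genes alone were also fixed, since the reported shares use tested hosts only. A limit of 10 kb gave 1415 members and 841 hosts. At 50 kb there were 335 members in 192 hosts, a median fold of 15.1 and 3.90 members per Mb. The authors' deposited table called 16.2% of these tested hosts higher. Among the 385 tested genes with a locus long enough for that limit but no such member, the share was 9.87%. At 20 kb the shares of hosts and of genes without a member were 12.3% and 5.99%. Peaks with a false discovery rate of at most 5% left 172 members (100% by construction at that rate) in 145 hosts, with median tags of 22, a median fold of 21.6, 0.958 members per Mb, 20.5% of hosts higher and 13.9% lower by the authors' calls, and a median log2 ratio of -0.067. Peaks with at least 20 tags left 228 members in 167 hosts, with median tags of 26, a median fold of 13.9, 47.8% at a false discovery rate of at most 5%, 1.27 members per Mb, and the authors' deposited table called 21.7% of hosts higher and 15.1% lower. Loci of tested genes alone gave 7.57 members per Mb, and centring gave 18.2% of hosts higher and 11.9% lower. Leaving out the 25 hosts with 5 or more members, chosen after seeing the data, gave 4.58 members per Mb. With either limit on the peaks, on that rate or on tags, more of the hosts were thus called higher and fewer lower. The counting intervals still overlap those of the reported shares. For higher calls they were 13.7% to 28.7% and 15.4% to 29.1%, beside 9.43% to 15.7%. For lower calls they were 8.33% to 21.4% and 9.84% to 21.8%, beside 17% to 24.7%. The cause was not tested. The other alternatives, whole peaks beyond 20 kb, other pseudocounts and filters and, chosen after seeing the data, no peak of 14 or more tags per 100 bp, moved no value past these limits. With 1 peak list, a weak member cannot be checked against a repeat: 148 members held 7 tags, the fewest in the list.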

Other observations

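The authors' false discovery rate did not fall steadily with their p score. All 6 members with a score of at least 270, in Numb, Tcerg1l, Lsamp, Adamts17, Setd3 and Cdh3, had a rate above 5%, from 6.67% to 33.3%, while none of the 14 members with a score from 200 to 270 did. Over all peaks on chromosomes 1 to 19, 69 of 70 with a score of at least 270 had a rate above 5%. A limit on that rate therefore removes the members with the lowest p-values.

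In 2 members the tags were packed more densely than in any other, beside a median of 3.21 tags per 100 bp over all members. The peak in Phf21b held 29.2 tags per 100 bp over 271 bp at 6.30-fold enrichment, and one in Garnl3 held 14.6 per 100 bp over 391 bp at 7.33-fold. The next, in Megf10, held 10.9 per 100 bp at 22.5-fold. These members were chosen after their values were seen.

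Density of deep peaks differed between chromosomes, from 2.17 per Mb on chromosome 14 (20 peaks, 1.33 to 3.35) to 7.45 on chromosome 19 (39 peaks, 5.30 to 10.2). Members lay in the middle 50% of their locus in 73% of cases, beside 70.4% of the deep sequence.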
